A study of Mus musculus with 20 samples.

Results

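The 10 genes described here encode the smooth muscle contractile apparatus and the filaments of myofibroblasts. They were chosen by name, as the smooth muscle actins Acta2 and Actg2, the actin-binding proteins Tagln and Cnn1, the myosin subunits Myh11 and Myl9, the tropomyosins Tpm1 and Tpm2, and the intermediate filament proteins Des and Vim. All 10 were found among the 51826 genes of the count table, and all 10 were among the 20407 genes tested. The data were RNA sequencing counts from 20 libraries of primary renal myofibroblasts of C57BL/6J mice. By the methods, these cells grew out of minced kidney tissue, and the methods name no sort for a marker. There were 5 libraries in each of 4 groups: WT untreated, WT with TGFβ1, WWP2-/- (labelled KO) untreated, and WWP2-/- with TGFβ1. The WWP2-/- mice carry a deletion of WWP2, an E3 ubiquitin ligase, that removes its full-length and N isoforms, and WT littermates came from heterozygous matings. The labels give neither the dose and duration of TGFβ1 nor the age of the mice, although the study's figure legends state the dose and duration. Nothing in the labels ties a library to an animal or culture, so p values measure only the spread between these libraries.

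Myofibroblasts are matrix-producing cells that acquire contractile filaments. Alpha-smooth muscle actin, encoded by Acta2, is their most used marker, and TGFβ1 is a classical inducer of that state in kidney fibroblasts. In smooth muscle, actin and myosin slide past each other when the regulatory light chain is phosphorylated, while tropomyosin, calponin and transgelin lie along the actin filament. Many of these genes share control by serum response factor and its myocardin-family cofactors, which bind the CArG box.

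The libraries held between 47520759 and 73063697 counts, and the smallest count of any of the 10 genes in any library was 51, so counting error was small beside the differences between libraries. Wwp2 was between 46.6 and 61.6 CPM (counts scaled to an equal library total) in WT libraries and between 15.4 and 24.0 CPM in WWP2-/- libraries, with no overlap. The label of myofibroblasts was checked against markers. Of 8 fibroblast markers, Pdgfrb, Col1a1 and Col1a2 were above 100 CPM in every library, whereas Col3a1 fell to 87.4, Dcn to 7.54, Thy1 to 0.63, Pdgfra to 0.59 and Lum to 0.016 CPM in their lowest libraries. Pdgfra was under 2 CPM in 9 of the 20 libraries, so the label was borne out by part of the list only. The skeletal muscle regulators Myod1, Myog and Myf5 had at most 3 counts in any library. Xist, the RNA of the inactive X chromosome, was at 1 CPM or more in 4 of 5 WT libraries untreated and 4 of 5 with TGFβ1, against 2 of 5 and 1 of 5 WWP2-/- libraries. Xist and genotype were thus partly confounded, and so was sex as far as Xist marks it. The labels give no sex.

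A pair of WWP2-/- libraries stood apart in the genes described here. In untreated replicate 3 and TGFβ1-treated replicate 1, all 10 genes were at the lowest level of their group. Acta2 was 39.7 CPM and 49.0 CPM in these libraries, which was 53.0 times and 33.5 times below the median of their groups. These libraries were also each other's nearest neighbour over all genes tested, with a Spearman rho of 0.992, although 1 was untreated and the other treated. The whole list of pericyte and vascular smooth muscle markers summed to 29.6 and 32.9 CPM in these libraries and to between 109.0 and 528 CPM in the other 18. The sums of endothelial markers (6.21 and 7.39 CPM) and tubular markers (20.6 and 16.1 CPM) were also the lowest of all libraries there. Macrophage markers summed to 75.8 and 67.8 CPM, the lowest of the WWP2-/- libraries. The fibroblast marker Pdgfra was at 95.4 and 102 CPM in them and at 15.2 CPM or less in the other 8 WWP2-/- libraries. Dcn, at 1171 and 1410 CPM, was the highest of all libraries there. Col1a1 (718 and 863 CPM) and Col3a1 (87.4 and 128 CPM) were instead the lowest of all WWP2-/- libraries there, and the 8 fibroblast markers summed to 3376 and 4037 CPM, within the range of the other WWP2-/- libraries. The part of cell composition in these levels was not tested, and in bulk RNA fewer cells of a type and less RNA per cell cannot be told apart. Results that compare groups or relate genes to Acta2 are given with these libraries and without them, and leaving both out was decided after the data were seen.

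A pair of WT libraries also stood apart. Over all genes tested, untreated WT replicate 4 and TGFβ1-treated WT replicate 3 had a WWP2-/- library as their nearest neighbour, while every other WT library had a WT library. They were the only WT libraries without Xist, and Pdgfra was at 0.59 and 0.67 CPM in them against 61.9 CPM or more in the other 8. The 8 fibroblast markers summed to 2275 and 8010 CPM in this pair, to between 12380 and 28490 CPM in the other WT libraries and to between 2586 and 8788 CPM in WWP2-/- libraries. Wwp2 was at the WT level in both, so it did not go against their labels.

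Short upstream sequences are shown because several of these genes are known targets of serum response factor and varied together across libraries. RefSeq start sites on GRCm38.p6 were matched for 7 of the 10 genes, and Tagln, Myh11 and Actg2 were not matched. The 250 bases before each start were searched on both strands for the CArG box, a palindromic motif of 10 bases with A or T at its central positions. A box without a mismatch was found in 1 of the 7 genes, against 1.47% of 32851 windows of that length. A box with at most 1 mismatch in its central A or T positions was found in 2 of the 7, against 8.59% of windows. The boxes lay in Acta2 and Myl9. The lines below give each box in capitals with 10 bases on either side, 5′ to 3′ on the strand of the gene. The boxes start 84 and 34 bases before the Acta2 start and 161 and 99 bases before the Myl9 start, and the Myl9 box at 161 is the exact match. In the GENCODE M21 annotation, which starts Acta2 further upstream, both Acta2 boxes lie inside the gene, and both Myl9 boxes lie upstream of the gene.
Acta2, chr19:34255438-34255467, minus strand: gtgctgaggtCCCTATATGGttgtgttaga
Acta2, chr19:34255388-34255417, minus strand: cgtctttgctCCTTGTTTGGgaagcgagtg
Myl9, chr2:156775293-156775322, plus strand: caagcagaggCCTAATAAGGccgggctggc
Myl9, chr2:156775355-156775384, plus strand: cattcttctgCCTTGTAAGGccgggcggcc
The MCAT motif (CATTCC on either strand) was found in the windows of Acta2 and Tpm1, which is 2 of 7, against 12.6% of windows. The other windows held neither motif, which says only that these letters were not in 250 bases.

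Per kilobase of exon, Acta2 (ENSMUSG00000035783, chr19:34241090-34255590) had the highest mean level of the 10 genes over the 20 libraries, at 744 CPM per kb. Vim followed at 588 CPM per kb, Tpm1 at 266, Myl9 at 230 and Tpm2 at 78.1 CPM per kb. Actg2 and Cnn1 were alike at 31.4 and 31.3 CPM per kb. Des was at 12.1, Tagln at 6.26 and Myh11, the smooth muscle myosin heavy chain, at 1.74 CPM per kb. The ranges over libraries overlapped between neighbours throughout this order, from 18.1 to 1520 CPM per kb for Acta2 and from 212 to 850 CPM per kb for Vim. Without correction for length, Vim led with 2791 CPM, and 7 of the 10 genes changed place.

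**Figure D1:**
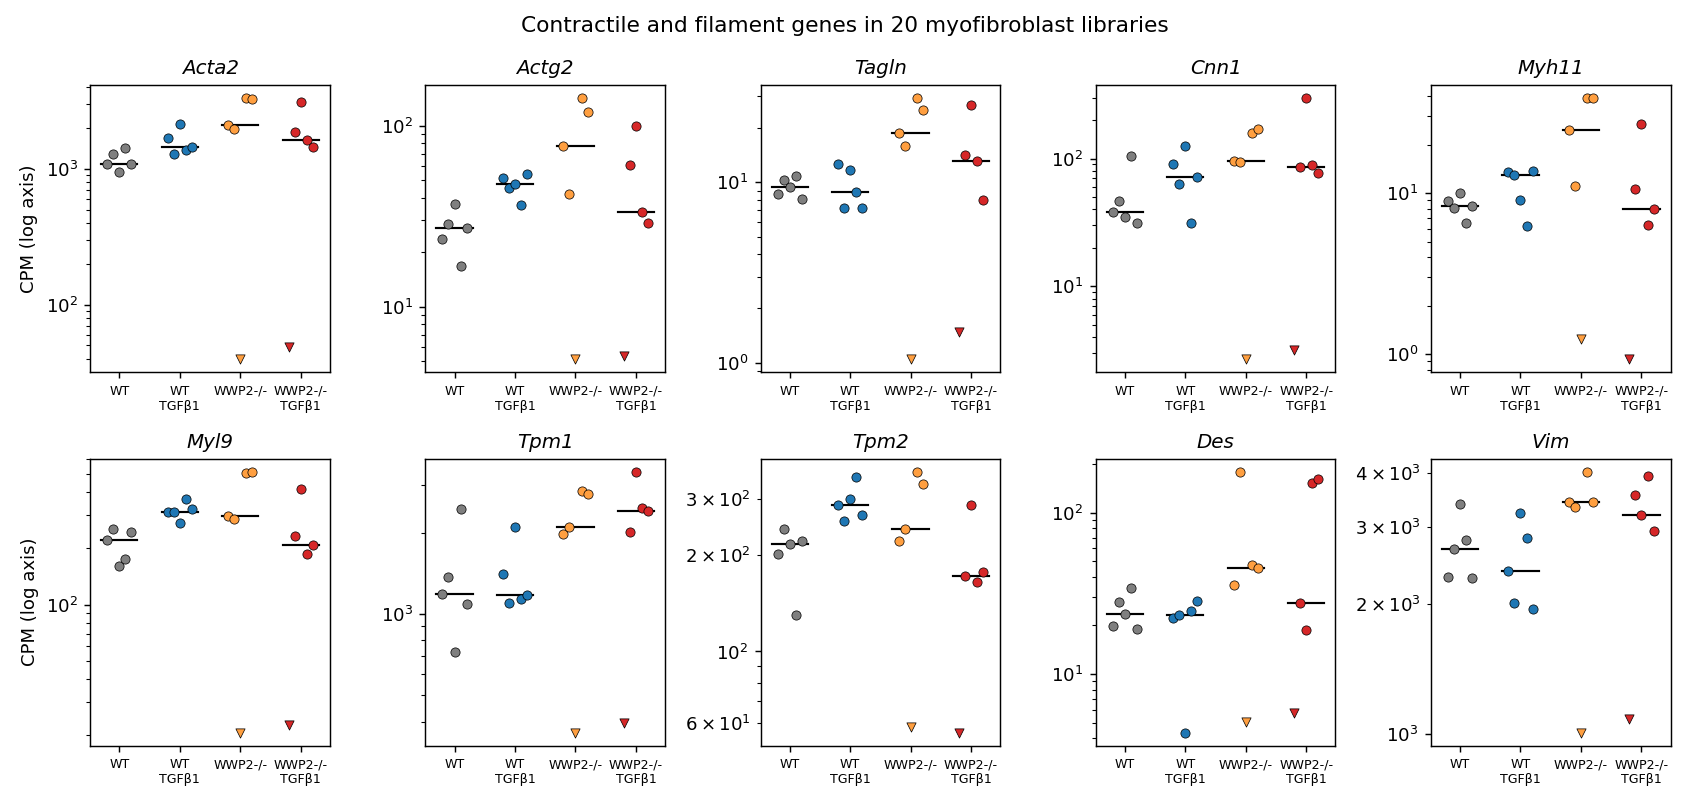
CPM on a log axis for each of the 10 genes in WT and WWP2-/- libraries, untreated and with TGFβ1. Points are libraries (5 in each group), bars are group medians, and triangles mark untreated WWP2-/- replicate 3 and TGFβ1-treated WWP2-/- replicate 1, which lie below the other libraries in most panels.

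The level of Tagln, which encodes the actin cross-linking protein transgelin, was 9.46±1.14 CPM in untreated WT libraries. In the annotation, 1349 of its 1988 exonic bases (67.9%) are shared with genes on the opposite strand, 1241 with Gm48529 and 108 with Pcsk7. The strand setting of the counting was not given in the sources used here, and how reads in shared bases were assigned was not tested. The level of Tagln against other genes is therefore uncertain. Of the other 9 genes, Des shared 5.86% of its exonic bases with Gm15179 and the remaining genes shared none. The actins also share near-identical coding sequence, so reads could be split among them.

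In untreated WT libraries, Acta2 was 1090, 1292, 945, 1425 and 1091 CPM in replicates 1 to 5. With TGFβ1, WT libraries had 1682, 1286, 2130, 1383 and 1441 CPM. The treated libraries lay higher on average (1584±338 against 1168±189 CPM), but the groups overlapped. In untreated WWP2-/- libraries, Acta2 was 2107, 1983, 39.7, 3337 and 3298 CPM. With TGFβ1, WWP2-/- libraries had 49.0, 1872, 3112, 1643 and 1459 CPM. Apart from the library at 39.7 CPM, every untreated WWP2-/- library was above every untreated WT library.

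Actg2 (ENSMUSG00000059430), the gamma-smooth muscle actin, was also lowest on average in untreated WT and highest in untreated WWP2-/- libraries. It was 23.7, 28.6, 37.0, 16.8 and 27.2 CPM in untreated WT libraries. With TGFβ1 it was 51.3, 45.2, 47.6, 36.6 and 53.9 CPM in WT, of which 4 libraries were above all untreated ones. Untreated WWP2-/- libraries had 76.7, 41.6, 5.14, 142 and 120 CPM, and treated WWP2-/- libraries had 5.35, 60.2, 99.0, 33.1 and 28.8 CPM. The spread within each WWP2-/- group, 27.6 times and 18.5 times from lowest to highest, was far above that in WT, at 2.19 times untreated and 1.47 times with TGFβ1.

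Among the actin-binding proteins, Cnn1 (ENSMUSG00000001349), or calponin 1, which restrains the myosin motor on actin, varied most. It ranged from 31.2 to 104 CPM in untreated WT libraries (median 38.4) and from 31.4 to 126 CPM in treated WT libraries (median 71.5). In WWP2-/- it ranged from 2.69 to 170 CPM untreated (median 96.2) and from 3.19 to 298 CPM with TGFβ1 (median 85.4). Tagln (ENSMUSG00000032085) ranged from 8.07 to 10.9 CPM in untreated WT libraries and from 1.05 to 29.3 CPM in untreated WWP2-/- libraries.

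Of the motor subunits, Myl9 (ENSMUSG00000067818), the regulatory light chain, was 211±41.9 CPM in WT untreated and 317±33.3 CPM in WT with TGFβ1. The highest untreated WT library had 254 CPM and the lowest treated WT library 272 CPM, so these groups did not overlap. How many of all genes tested separate in this way was not counted. Myl9 was not called in this comparison by edgeR's quasi-likelihood test (adjusted p = 0.91). In WWP2-/-, Myl9 was 325±202 CPM untreated and 213±141 CPM with TGFβ1. Myh11 (ENSMUSG00000018830) was 8.36±1.25 CPM in WT untreated and 11.1±3.32 CPM in WT with TGFβ1. Untreated WWP2-/- libraries had 24.6, 11.1, 1.23, 38.7 and 39.0 CPM of Myh11, of which 4 were above all untreated WT libraries.

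The tropomyosins, which lie along the actin filament, differed from each other. Tpm1 (ENSMUSG00000032366) was 1361±647 and 1384±420 CPM in WT libraries without and with TGFβ1, and 2013±1001 and 2130±1086 CPM in WWP2-/- libraries. Tpm2 (ENSMUSG00000028464) was 202±42.8 CPM in WT untreated and 292±36.5 CPM in WT with TGFβ1, where the lowest treated library, at 256 CPM, was above the highest untreated one, at 241 CPM. Tpm2 was not called in this comparison by edgeR's quasi-likelihood test either (adjusted p = 0.86). In WWP2-/- libraries, Tpm2 was 244±120 CPM untreated and 172±81.8 CPM with TGFβ1.

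The intermediate filament proteins followed the others only in part. Vim (ENSMUSG00000026728), the filament protein of mesenchymal cells, varied least, between 1945 and 4031 CPM outside the pair of low libraries and at 1006 and 1080 CPM within it. Des (ENSMUSG00000026208), the filament protein of muscle, was 19.8, 28.1, 23.7, 34.2 and 19.1 CPM in untreated WT libraries and 22.2, 23.3, 4.33, 24.5 and 28.5 CPM in treated WT libraries. Untreated WWP2-/- libraries had 35.8, 179, 5.06, 47.2 and 45.5 CPM, and treated WWP2-/- libraries had 5.74, 27.4, 18.7, 153 and 162 CPM. Untreated replicate 2 and treated replicates 4 and 5 of WWP2-/- were thus above 150 CPM, while every other library was at 47.2 CPM or less. In the same 3 libraries, the whole list of 6 endothelial markers summed to 164, 165 and 152 CPM, against 6.21 to 82.3 CPM in the other WWP2-/- libraries. The sum was 178 CPM in treated WT replicate 3, where Des was at its lowest, 4.33 CPM. The 9 tubular markers summed to 943, 625 and 729 CPM in these 3 libraries, against 16.1 to 397 CPM in the other WWP2-/- libraries. The 7 macrophage markers summed to 1902, 3632 and 2690 CPM there, against 67.8 to 957 CPM in the other WWP2-/- libraries. In untreated WT replicate 4 the macrophage and tubular sums were 4179 and 594 CPM, while Des was at 34.2 CPM. The part of these cell types in the level of Des was not tested.

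The first comparison asked how TGFβ1 changed the genes within each genotype. No gene of the 10 passed edgeR's quasi-likelihood test at an adjusted p below 0.05 in either genotype. No gene of the 20407 tested did so either (0% in WT and 0% in WWP2-/-), although 1397 and 713 genes had an unadjusted p below 0.05, and the Wald test of DESeq2 called 27 and 49 genes with none of the 10 among them. In WT, 8 of the 10 genes were above 0 on the log2 scale, with a median of 0.52 against 0.02 over all genes tested. Markers of other cell types moved with this comparison: all 7 macrophage markers (median -2.47) and all 9 tubular markers (median -2.05) were below 0, and 7 of 8 fibroblast markers were above 0 (median 0.49), with none called. Their part in the values of the 10 genes was not tested. Actg2 had the largest value, 1.87-fold (log2 0.90, SE 0.65, 95% interval -0.46 to 2.26, adjusted p = 0.89). Acta2 was at 1.45-fold (log2 0.54, SE 0.76, interval -1.05 to 2.12, adjusted p = 0.95), Myl9 at 1.62-fold (adjusted p = 0.91) and Tpm2 at 1.54-fold (adjusted p = 0.86). Tpm1, Tagln and Vim were between -0.03 and 0.13 on the log2 scale.

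In WWP2-/- cells, 7 of the 10 genes were below 0 with TGFβ1, with a median log2 fold change of -0.39 against 0.00 over all genes tested. Myh11 had the lowest value, a log2 fold change of -1.05 (SE 0.70, 95% interval -2.52 to 0.43, adjusted p = 1). Actg2 was at -0.70 (SE 0.65) and Acta2 at -0.35 (SE 0.75, interval -1.93 to 1.23). When both low libraries were left out, the values moved little (Acta2 -0.34, SE 0.28, adjusted p = 1), and again no gene of all those tested was called in WT (0%) or in WWP2-/- (0%), with 2108 and 1210 genes at an unadjusted p below 0.05. With 16 libraries, 0% of all genes were called in WT and 0.662% in WWP2-/-, with none of the 10 among them.

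The difference of the responses, tested as the interaction of genotype and treatment, was below 0 for 8 of the 10 genes, with a median of -0.71 on the log2 scale against -0.02 over all genes tested. The most negative values were those of Actg2 (-1.60, SE 0.92, 95% interval -3.52 to 0.32, adjusted p = 0.79), Myh11 (-1.55, SE 0.99, adjusted p = 0.83) and Myl9 (-1.25, SE 0.85, adjusted p = 0.85). Tpm1 (-0.01) and Vim (0.01) were near 0. The interaction was called for no gene of all tested (0%), with 1424 at an unadjusted p below 0.05 and 10 called by DESeq2. Without both low libraries it was again called for no gene (0%), with 2321 at an unadjusted p below 0.05. With 16 libraries, 0.988% of all genes were called, again with none of the 10. The responses of WT and WWP2-/- cells were therefore not shown to differ for any of the 10 genes.

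The second comparison asked how the genotypes differed. In untreated cells, all 10 genes had a fold change above 1 in WWP2-/-, with a median of 0.85 on the log2 scale against 0.08 over all genes tested, but none was called. Over all genes, 148 were called, which is 0.725%. Cell type markers differed as well: all 8 fibroblast markers (median -1.79) and all 7 macrophage markers (median -0.84) were below 0, with none called. Of 4 tested mesangial markers, 3 were below 0 (median -3.165), and 2 were called lower. Of 6 endothelial markers, 4 were above and 2 below 0 (median 0.74), and 1 was called lower. Their part in the values of the 10 genes was not tested. The highest values were those of Actg2, 2.76-fold (log2 1.46, SE 0.66, 95% interval 0.08 to 2.84, adjusted p = 0.31), and Myh11, 2.63-fold (log2 1.40, SE 0.71, adjusted p = 0.36). Acta2 was at 1.78-fold (log2 0.83, SE 0.76, adjusted p = 0.63). Vim was at 1.08-fold (log2 0.11, SE 0.32).

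Leaving out both low libraries changed this comparison. They were left out for their low levels of these same genes, so higher levels in WWP2-/- follow in part from the choice, and the calls below are a description and no support. Acta2 was then 2.19-fold higher in untreated WWP2-/- cells (log2 1.13, SE 0.26, adjusted p = 0.044), at 2681±736 CPM (n = 4) against 1168±189 CPM (n = 5). Actg2 was 3.36-fold higher (log2 1.75, SE 0.41, adjusted p = 0.047), at 94.96±44.7 against 26.6±7.33 CPM. Over all genes, 271 were called in this fit, or 1.34%, so that 2 of the 10 genes stood against that share. Myh11 (log2 1.69, SE 0.45, adjusted p = 0.069) and Tagln (1.17, SE 0.32, adjusted p = 0.069) missed the threshold. Tpm1 was at 0.79 (adjusted p = 0.14) and Vim at 0.31 (adjusted p = 0.40).

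The same values were examined within libraries of like Xist. Among untreated libraries without Xist, Acta2 was 1425 CPM in the only WT library and between 1983 and 3337 CPM in 3 WWP2-/- libraries. Among those with Xist, it was between 945 and 1292 CPM in 4 WT libraries, and 39.7 and 2107 CPM in 2 WWP2-/- libraries. The library at 2107 CPM, untreated WWP2-/- replicate 1, had only 35.5 CPM of Xist. All other libraries with Xist, in any group, had 109.7 to 297.4 CPM of it. For Actg2, the library without Xist had 16.8 CPM in WT, against 41.6 to 142 CPM in WWP2-/-, and those with Xist had 23.7 to 37.0 CPM in WT against 5.14 and 76.7 CPM. With Xist as a covariate and all 20 libraries, the log2 difference of Acta2 turned to -0.40 (adjusted p = 0.80) and that of Actg2 fell to 0.58 (adjusted p = 0.69). Both low libraries carry Xist, so the covariate and their low levels could not be told apart.

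Leaving out the pair of WT libraries that stood apart as well, which kept 16 libraries, raised the calls among all genes to 2909 (14.6%) in untreated cells. Of the 10 genes, 6 were then called higher in WWP2-/-, with Acta2 at 2.22-fold (log2 1.15, SE 0.28, adjusted p = 0.013), Actg2 at 2.98-fold (log2 1.58, SE 0.43, adjusted p = 0.025), Tpm1 at 2.03-fold (adjusted p = 0.0082), Cnn1 at 3.16-fold (adjusted p = 0.026), Tagln at 2.23-fold (adjusted p = 0.037) and Myh11 at 2.95-fold (adjusted p = 0.044). The libraries were left out for lying near the other genotype, so a rise in calls follows in part from the choice. In that set every WT library and 1 of 8 WWP2-/- libraries carried Xist, so genotype cannot be told apart there from Xist, or from sex as far as Xist marks it.

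With TGFβ1, the 10 genes split evenly between the genotypes, 5 above and 5 below 0. Their median log2 fold change was 0.04 against 0.05 over all genes, and none was called, while 1238 of all genes (6.07%) were. The interaction was called for none of the 10, so a smaller difference than in untreated cells was not shown. Acta2 was at 0.96-fold (log2 -0.05, SE 0.75, 95% interval -1.63 to 1.53, adjusted p = 0.98). Tpm2 was lower, with a log2 fold change of -0.88 (SE 0.40, unadjusted p = 0.040, adjusted p = 0.18), and Des was higher, at 3.02-fold (log2 1.60, SE 0.80, adjusted p = 0.22). All 8 fibroblast markers were below 0 here (median -2.44), and 2 were called lower. Of 4 tested mesangial markers, 3 were below 0 and called lower (median of the 4 -3.21). Of 6 endothelial markers, 4 were above and 2 below 0 (median 0.53), and 2 were called lower. All 7 macrophage markers (median 2.52) and all 9 tubular markers (median 2.02) were above 0, with none called. The part of cell composition in the values of the 10 genes was not tested.

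Without both low libraries, where the same limit holds, Des was called in treated cells at 3.69-fold (log2 1.88, SE 0.62, adjusted p = 0.046), at 90.1±77.6 CPM (n = 4) against 20.6±9.38 CPM (n = 5). The 3480 genes called in that fit were 17.2% of those tested, so 1 of 10 was not above the background. That fit also called 7 of 8 fibroblast markers lower and all 7 macrophage markers higher in WWP2-/-. The call rested on replicates 4 and 5, at 153 and 162 CPM, since replicates 2 and 3 had 27.4 and 18.7 CPM against 4.33 to 28.5 CPM in WT. Among libraries without Xist, Des was 4.33 CPM in 1 WT library and between 18.7 and 162 CPM in 4 WWP2-/- libraries. In libraries with Xist it was 22.2 to 28.5 CPM in WT and 5.74 CPM in 1 WWP2-/- library. Tpm1 (log2 0.79, SE 0.28, adjusted p = 0.058) and Tpm2 (-0.66, SE 0.26, adjusted p = 0.088) lay on opposite sides of 0 and missed the threshold, and Acta2 was at 0.26 (adjusted p = 0.52). With 16 libraries, Tpm1 was called higher (log2 0.93, SE 0.23, adjusted p = 0.0064), Tpm2 lower (-0.70, SE 0.24, adjusted p = 0.037) and Des higher (1.62, SE 0.59, adjusted p = 0.049), against 32.5% of all genes called, and Acta2 was at 0.33 (adjusted p = 0.39).

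**Figure D2:**
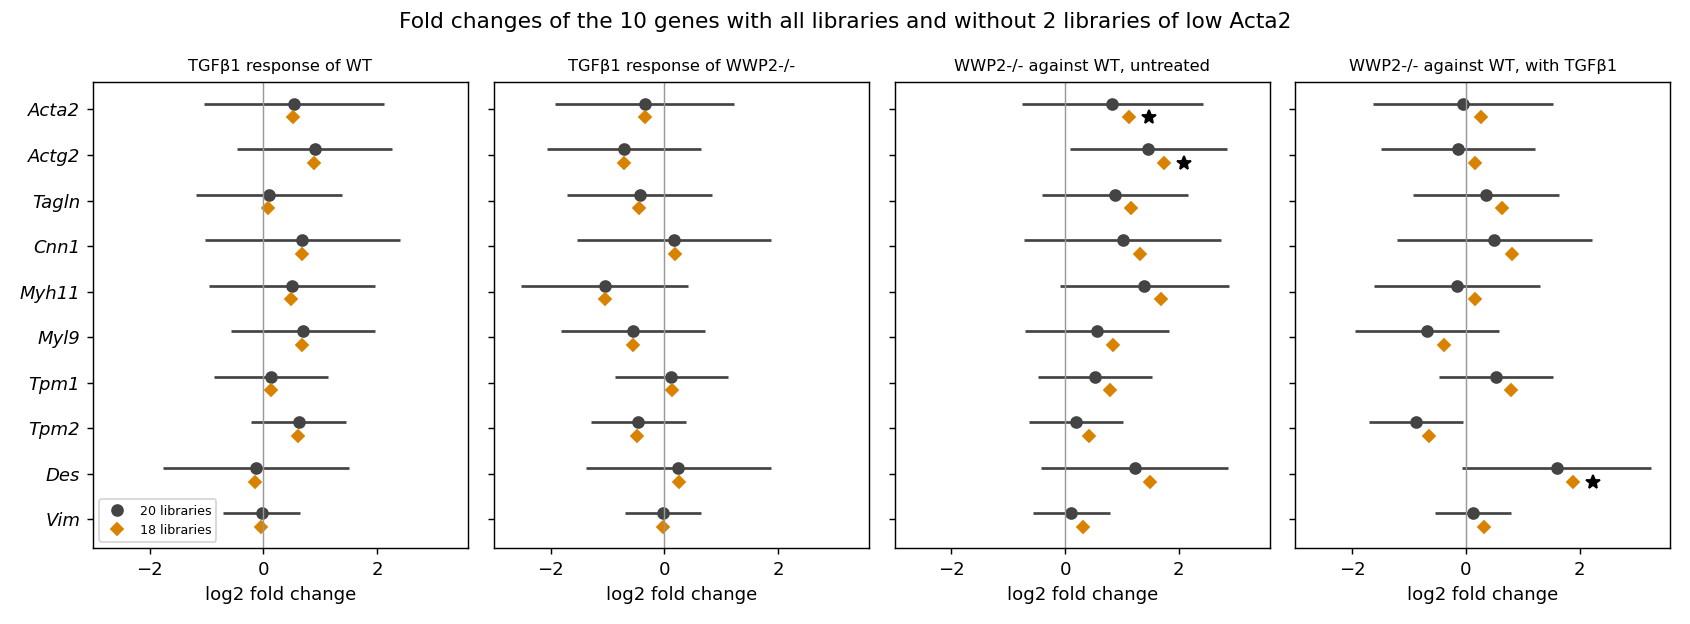
Log2 fold changes of the 10 genes for 4 comparisons. Circles with 95% intervals are the fit of 20 libraries, diamonds are the fit of 18 libraries, and stars mark the values called in the latter, which were Acta2 and Actg2 in untreated cells and Des with TGFβ1.

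The third question was how far the other 9 genes varied with Acta2 when differences between group means were removed. Over all 20 libraries, each of the 9 had a positive slope on Acta2 in a limma fit with group as a factor, and all 9 were called. Of all 20406 other genes, 38.2% were called, 3922 with a positive and 3866 with a negative slope. Pearson's r of the deviations was between 0.63 (Des) and 0.98 (Tagln). These values rest on the low libraries, which form a cluster of their own, so the relation was read over the other 18 libraries.

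Over the 18 libraries, 6 of the 9 genes were called and 3.4% of all genes tested were. Tagln followed Acta2 most closely (r = 0.91, adjusted p = 0.0027, rho = 0.86), with a permutation p of 0.00046 for r and 0.00087 for rho. Cnn1 was next (r = 0.83, adjusted p = 0.0081, rho = 0.80, permutation p = 0.00056 and 0.0017). Myl9 (r = 0.77, adjusted p = 0.025), Tpm1 (r = 0.76, adjusted p = 0.035), Actg2 (r = 0.75, adjusted p = 0.030) and Myh11 (r = 0.73, adjusted p = 0.037) were also called. The rho of these 4 genes was 0.66, 0.83, 0.62 and 0.61, with permutation p of 0.038, 0.00033, 0.046 and 0.043. Their permutation p for r was 0.028, 0.00035, 0.016 and 0.029.

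Tpm2 (r = 0.64, rho = 0.65, permutation p = 0.034 and 0.035, adjusted p = 0.089) missed the adjusted threshold. Vim was only weakly related to Acta2 (r = 0.39, rho = 0.38, permutation p = 0.10 and 0.12, adjusted p = 0.44). Des varied in the opposite direction to Acta2 (r = -0.64, rho = -0.58, permutation p = 0.015 and 0.029), and its adjusted p was 0.083. Its r was 0.63 with the low libraries included, so its sign turned with them. When group means were not removed, the r of Des with Acta2 over the 18 libraries was -0.031. The slope was above 1 for Cnn1 (1.56), Myh11 (1.34), Actg2 (1.27) and Tagln (1.15), meaning that their log2 level changed more than that of Acta2, and it was 0.80 for Tpm1.

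Untreated replicate 4 (3337 CPM) and treated replicate 3 (3112 CPM) of WWP2-/- were then left out. They were the libraries farthest from the median of Acta2 on the normalized log2 scale of the fit. Untreated WWP2-/- replicate 5, at 3298 CPM, was kept. Over the remaining 16 libraries, r was 0.78 for Tagln (rho 0.82, permutation p = 0.0048 and 0.0032), 0.67 for Cnn1 (rho 0.70, p = 0.0041 and 0.0035) and 0.65 for Tpm1 (rho 0.72, p = 0.0026 and 0.0065), each by permutation. For Actg2, Myl9, Myh11 and Tpm2, r fell to 0.48, 0.45, 0.40 and 0.24, with permutation p between 0.26 and 0.53. The relation of these 4 genes to Acta2 was therefore not shown without untreated replicate 4 and treated replicate 3 of WWP2-/-. Leaving these out also narrowed the range of Acta2, and the pair of WT libraries that stood apart was kept. Which libraries carry the relation was not tested. Des was at -0.55 (permutation p = 0.085) and Vim at 0.29 (permutation p = 0.21).

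**Figure D3:**
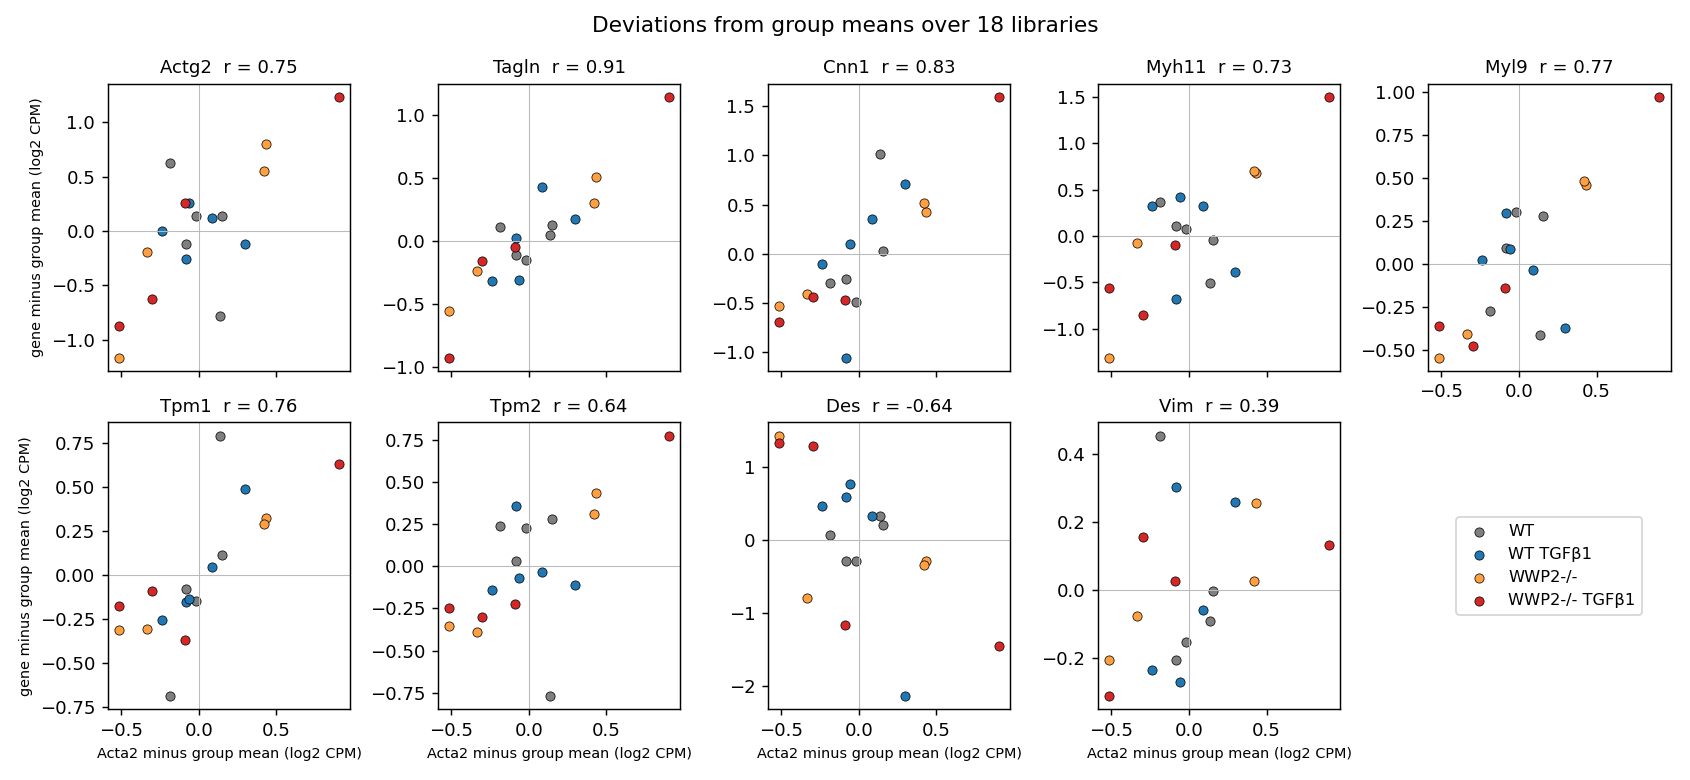
Deviation of each of the other 9 genes from its group mean against that of Acta2, both in log2 CPM, over 18 libraries coloured by group. Tagln, Cnn1 and Tpm1 have an r of 0.91, 0.83 and 0.76 with Acta2, Des has a negative r (-0.64), and Vim is scattered (r = 0.39). Which libraries carry these relations was not tested.

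The genes also differed in which partners they varied with over these 18 libraries, given here as a description with no test. Myh11 and Actg2 had an r of 0.93 with each other, and Myl9 and Tpm2 an r of 0.88. Cnn1 and Tpm1 had an r of 0.83 with each other, whereas Tpm1 had an r of only 0.11 with Tpm2, 0.16 with Actg2 and 0.26 with Myh11. Des was negative with all 9 others, from -0.64 with Acta2 to -0.32 with Tpm2. The points share library, depth and cell composition.

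Among all genes with a mean of at least 1 CPM, the 10 with the highest Spearman rho with Acta2 over the 20 libraries, without centring, were Csrp1 (0.96), Igfbp7 (0.93), Lmod1 (0.91), Cs (0.91), Kcnmb1 (0.90), Actn1 (0.90), Nde1 (0.90), Tspan18 (0.89), Tmem18 (0.89) and Filip1l (0.89). Csrp1 is a smooth muscle LIM protein, Lmod1 is the smooth muscle leiomodin that nucleates actin, Kcnmb1 is a subunit of the smooth muscle potassium channel, and Actn1 is an actin cross-linker of adhesions. Cs encodes citrate synthase of the mitochondrial matrix. Csrp1 ranged from 118 to 1190 CPM and Lmod1 from 7.44 to 123 CPM. Of 13533 genes so ranked, Actg2 was at place 15, Cnn1 at 20, Tagln at 82, Myl9 at 137 and Tpm1 at 149, while Myh11 was at 428, Tpm2 at 676, Vim at 902 and Des at 2877. Over the 18 libraries without the low pair, Csrp1 stayed first (0.95) and the 10 genes named lay between places 1 and 21, while Actg2 was at place 40, Cnn1 at 43, Tagln at 229, Myl9 at 386, Tpm1 at 411, Myh11 at 1184, Tpm2 at 1886, Vim at 2448 and Des at 5404.

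The share of each gene in its family was also compared. Per kilobase of exon, Acta2 made up 26.7±3.42% of the 6 actins in untreated WT libraries, against 40.6±3.21% for the cytoskeletal actin Actb and 31.7±0.66% for Actg1. The share of Acta2 was 32.3±6.62% in WT with TGFβ1, 33.3±17.2% in untreated WWP2-/- and 31.2±16.4% in treated WWP2-/- libraries. It was 3.06% and 3.50% in the low libraries, and at most 46.9% elsewhere. Without these, the WWP2-/- means were 40.8±3.75% untreated and 38.2±6.33% with TGFβ1 (n = 4 each). Actg2 held 0.88±0.33% in untreated WT libraries, and the muscle actins Acta1 and Actc1 were each under 0.3% in every library.

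Tpm1 held 28.2±10.9% and Tpm2 9.77±2.61% of the 4 tropomyosins in untreated WT libraries, and Tpm4, a cytoskeletal form, held 52.7±8.55%. The share of Tpm1 was above that of Tpm4 in 4 of the 20 libraries, untreated WT replicate 4 and treated WWP2-/- replicates 3, 4 and 5. With TGFβ1 the shares of Tpm1 and Tpm2 were 26.7±6.58% and 12.6±1.06% in WT, and 37.8±13.1% and 6.996±1.576% in WWP2-/-. The lowest share of Tpm2 in treated WT was 11.8% and the highest in treated WWP2-/- was 9.26%, so these groups did not overlap. The shares were compared without a test, and how many genes separate in this way was not counted. Without the low library, the shares in treated WWP2-/- were 43.4±4.62% for Tpm1 and 7.52±1.21% for Tpm2. Myh11 was 0.65±0.13% of the class II myosin heavy chains in untreated WT, where the nonmuscle chain Myh9 was 78.7±9.13%. Cnn1 was 3.72±1.58% of the calponins and transgelins, and Vim was 91.9±3.44% of the type III and IV filaments beside 1.08±0.20% for Des.

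**Figure D4:**
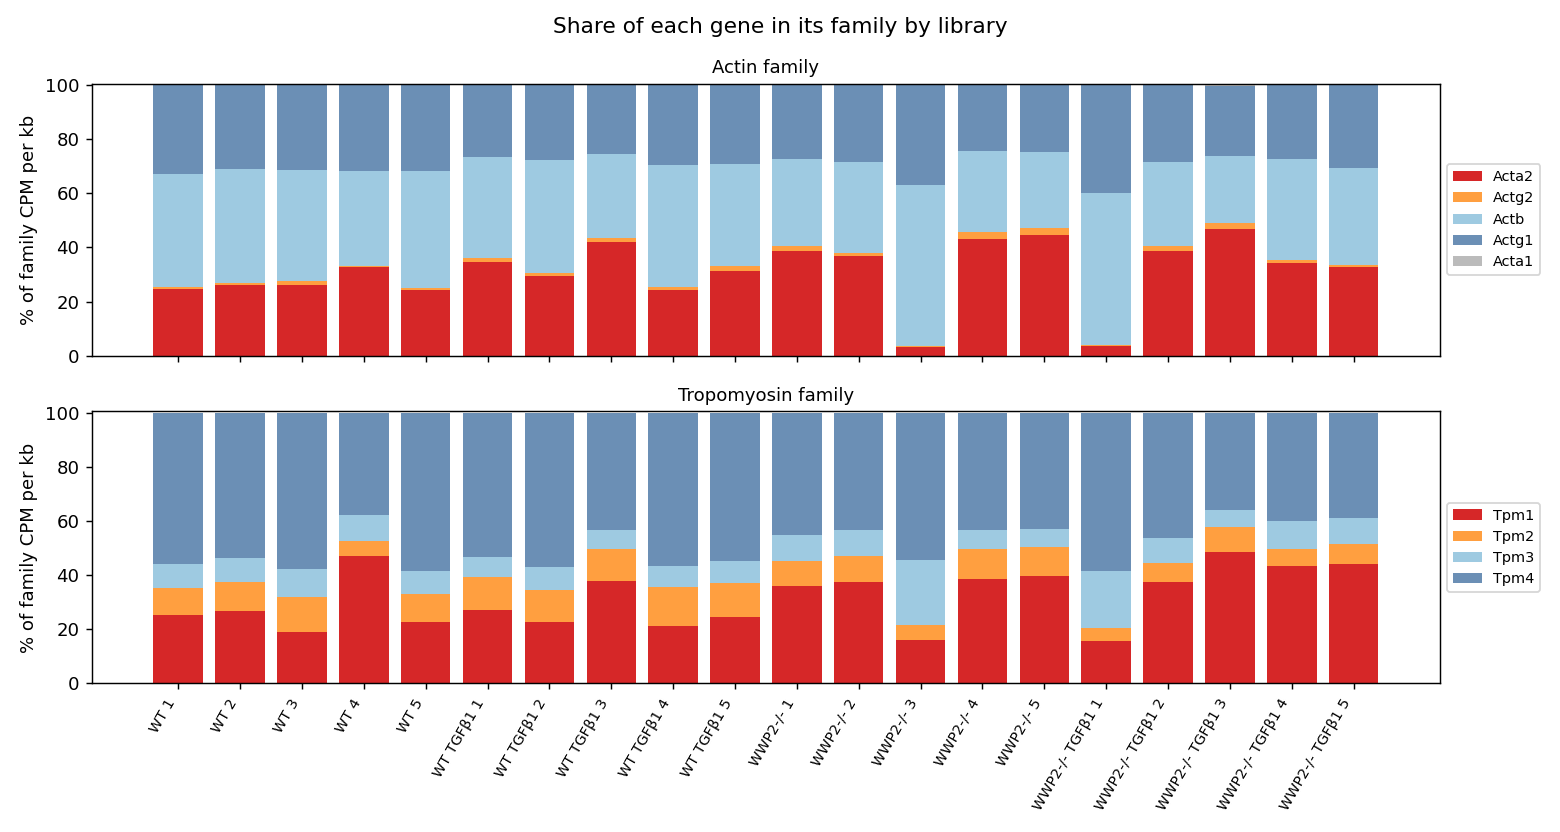
Share of each gene in the summed CPM per kilobase of its family, by library, for the actins and the tropomyosins. Acta2 is at 3.06% and 3.50% of the actins in untreated WWP2-/- replicate 3 and treated WWP2-/- replicate 1, and between 24.3% and 46.9% in the other libraries.

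Other genes of the contractile program were examined by list. No gene of these 5 lists was called for TGFβ1 in either genotype, for the interaction, or for genotype in untreated cells. With TGFβ1, 2 of the 22 tested genes of the contractile apparatus and its regulation fell in WWP2-/- cells. These were Myh10, a nonmuscle myosin heavy chain, at 132±41.7 CPM against 380±87.2 CPM in WT (log2 -1.65, SE 0.42, adjusted p = 0.029), and Ppp1r12b, a targeting subunit of myosin phosphatase, at 40.1±16.1 against 93.5±24.9 CPM (log2 -1.32, SE 0.36, adjusted p = 0.035). Over all genes, 6.07% were called in this fit, so 2 of 22 was close to the background. Without both low libraries, the log2 values were -1.55 for Myh10 (adjusted p = 0.024) and -1.46 for Ppp1r12b (adjusted p = 0.023). None of the 16 regulators linked to serum response factor, of the 21 tested genes of actin filaments and adhesions, or of the 10 other intermediate filament genes was called. Without both low libraries, the count with TGFβ1 was 2 higher and 4 lower for the contractile apparatus, 4 lower for the regulators and 3 higher for actin filaments and adhesions, in a fit that called 17.2% of all genes.

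The fifth list, 12 genes known to respond to TGFβ, had a median log2 fold change with TGFβ1 of 0.22 in WT and 0.55 in WWP2-/- cells, and none was called. Genes of this list were called between genotypes with TGFβ1. Il11, a profibrotic cytokine, rose from 5.92±4.88 CPM in WT to 111±150 CPM in WWP2-/- cells (log2 4.27, SE 0.92, adjusted p = 0.014). The matrix genes Postn (log2 -2.44, SE 0.68, adjusted p = 0.041) and Col1a1 (log2 -1.98, SE 0.58, adjusted p = 0.049) fell. Col1a1 is also 1 of the 8 fibroblast markers, all of which were below 0 in this comparison. Without both low libraries, the log2 values were 4.49 for Il11 (adjusted p = 0.010), -2.85 for Postn (adjusted p = 0.013) and -1.78 for Col1a1 (adjusted p = 0.046). With Xist as a covariate, Il11 was past the threshold (adjusted p = 0.045), and Myh10, Ppp1r12b, Postn and Col1a1 had adjusted p between 0.096 and 0.34.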

How the data were processed

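Per the labels and the study's methods, poly-A libraries were aligned by the authors to GRCm38 with STAR, featureCounts summed exon reads per gene, and the deposited values are raw counts without normalization. Aligner versions and the strand setting were not given in the sources used here. All 20 columns matched the labels. Gene names, positions, exon lengths and overlaps came from GENCODE M21, and start sites from RefSeq (GRCm38.p6).

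The members and lists were chosen with earlier results of these data known. The filter kept 20407 genes, those reaching 5 counts in 5 or more libraries. R 4.3.3 with edgeR 4.0.16 (TMM, quasi-likelihood test, 4 groups, no block) gave fold changes, with Benjamini–Hochberg adjustment over all genes tested and a threshold of 0.05. CPM use library totals. Variation with Acta2 was fitted with limma 3.58.1 on log2 CPM (prior count 2) with group as a factor, beside Pearson's r and Spearman's rho of deviations from group means, with 100000 two-sided permutations within groups. The procedure was tested on simulated data. Medians and counts of a list stand beside those of all genes, without a test. Named genes are the 10 members, Wwp2, the 10 genes most like Acta2 by rho, and in each other list up to 4 called genes with the largest change and a mean of at least 1 CPM. Alternatives were DESeq2 1.42.0 (size factors, Wald test), other filters, Xist as a covariate, the replicate number as a block, only the groups compared, and each library left out. Leaving out both low libraries, or all 4 libraries that stood apart, was added after seeing the data. No pair of libraries was identical, and the closest pair of a group differed by more than sampling noise (chi-square per degree of freedom 23.0). A result of the list of TGFβ response genes is not reported here.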

Additional observations from a re-analysis of the deposited data

Results flagged for a closer look

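Within the groups of 5 libraries, 11 values of the 10 genes lay further from their neighbour than Dixon's critical ratio of 0.71 on the log2 scale, among 40 combinations of gene and group. Chance flags about 1 in 20 groups when they are independent. These 40 combinations share libraries and are not independent, and the share of flags over all genes was not counted. Untreated WWP2-/- replicate 3 was flagged as the lowest library for 6 genes, with 39.7 CPM of Acta2, 1.05 CPM of Tagln, 2.69 CPM of Cnn1, 20.6 CPM of Myl9, 364 CPM of Tpm1 and 1006 CPM of Vim. TGFβ1-treated WWP2-/- replicate 1 was flagged as the lowest for Acta2, at 49.0 CPM, and for Vim, at 1080 CPM. Both libraries were also the lowest of their group for the other genes, without a flag. Untreated WT replicate 4 had the lowest Tpm2, at 130 CPM, and TGFβ1-treated WT replicate 4 had the highest, at 350 CPM. Des was lowest, at 4.33 CPM, in TGFβ1-treated WT replicate 3.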

How the results depend on the processing

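Of 1440 values of a log2 fold change under an alternative, 81 changed sign, 12 passed the threshold only there and 1347 did neither; no value that changed sign was called. All 12 came from leaving out libraries that stood apart, and no other alternative called any of the 10 genes between groups. The cause of the changes was not tested.

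Counts of genes called moved most. For the TGFβ1 response of WT, 1 gene was called with Xist as a covariate and 27 by DESeq2's Wald test. For the TGFβ1 response of WWP2-/-, 49 were called by DESeq2, 132 with 16 libraries, and 0 to 63 with 1 library left out, the highest without untreated WWP2-/- replicate 3. For WWP2-/- against WT untreated (148), the count was 77 with Xist, 743 with DESeq2, 1 with only the groups compared, 271 without both low libraries (2 of the 10 genes) and 2909 with 16 libraries (6 of the 10). It ran from 1 to 743 with 1 library left out, the highest without untreated WT replicate 4. With TGFβ1 (1238), it was 790 with no filter, 565 with Xist, 2672 with DESeq2, 534 with only the groups compared, 3480 without both low libraries (1 of the 10) and 6487 with 16 libraries (3 of the 10). It ran from 453 without treated WT replicate 2 to 2730 without treated WT replicate 3. The interaction gave 10 with DESeq2 and 197 with 16 libraries, and it could not be fitted with only the groups compared, since it uses all groups.

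For variation with Acta2 (7788 genes), the count was 2109 over treated libraries, 4888 over untreated libraries, 694 without both low libraries, 4242 with Xist and 3989 to 8375 with 1 library left out, the lowest without untreated WWP2-/- replicate 3 (4106 without treated WWP2-/- replicate 1). Of the 9 genes, between 6 and 9 stayed called, and the r of Des turned from 0.63 to -0.636 without both low libraries.

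Same-numbered libraries had correlated deviations between -0.522 and 0.443, so the numbers did not pair the libraries. Some differently numbered libraries were closer. In WWP2-/-, r was 0.907 for untreated replicate 3 with treated replicate 1 and 0.766 for untreated replicate 2 with treated replicate 5. In WT, it was 0.727 for untreated replicate 4 with treated replicate 3. The labels do not say whether these share a culture or animal, and the tests treated all libraries as independent. With the replicate number as a block, 1 gene was called for genotype untreated, 670 with TGFβ1 and 3423 for variation with Acta2, and the TGFβ1 response of WWP2-/- turned to -0.65 for Cnn1 and -0.0097 for Tpm1. The block changed no call of the 10 genes between groups.

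With Xist as a covariate, the sign turned as follows, on the log2 scale. The TGFβ1 response was 0.12 for Des in WT, and -0.54 for Cnn1 and -0.24 for Tpm1 in WWP2-/-. Untreated WWP2-/- against WT was -0.40 for Acta2, -0.073 for Tagln, -0.25 for Cnn1, -0.40 for Myl9, -0.23 for Tpm1, -0.35 for Tpm2 and -0.32 for Vim. With TGFβ1 it was -0.99 for Tagln, -1.66 for Cnn1, -0.70 for Tpm1, -0.036 for Des and -0.45 for Vim. The interaction was -0.12 for Des and -0.13 for Vim. Without both low libraries, the treated genotype difference was 0.26 for Acta2, 0.15 for Myh11 and 0.16 for Actg2, and the interaction of Tpm1 was 0.000146. With 16 libraries these differences were 0.33, 0.049 and 0.12, and the TGFβ1 response of Des in WT was 0.21. Values near 0 also turned. The TGFβ1 response of Vim in WWP2-/- was 0.00334 with DESeq2's size factors or Wald test and 0.000954 with only the groups compared, and the interaction of Tpm1 was 0.019 with either DESeq2 setting and 0.026 with 10 counts in every library.

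With 1 library left out, the sign turned for these ranges. The TGFβ1 response of WT ran from -0.28 to 0.14 for Des, -0.025 to 0.17 for Tagln, -0.0089 to 0.39 for Tpm1 and -0.12 to 0.10 for Vim. That of WWP2-/- ran from -0.77 to 0.49 for Cnn1, -0.24 to 1.08 for Des, -0.18 to 0.39 for Tpm1 and -0.24 to 0.19 for Vim. Genotype untreated ran from -0.039 to 0.42 for Tpm2 and -0.055 to 0.31 for Vim. With TGFβ1 it ran from -0.54 to 0.25 for Acta2, -0.77 to 0.14 for Actg2, -0.45 to 0.80 for Cnn1, -0.997 to 0.13 for Myh11 and -0.24 to 0.62 for Tagln. The interaction ran from -0.11 to 1.23 for Des, -0.31 to 0.26 for Tpm1 and -0.20 to 0.22 for Vim.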
